A study of Homo sapiens with 4 samples.

Results

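Keratins and vimentin are the proteins of cytoplasmic intermediate filaments, and 9 of their genes were followed in 2 human cell lines exposed to a magnetic field. The genes were chosen by symbol: KRT7, KRT8, KRT10, KRT18, KRT19, KRT80, KRT81, KRT86 and VIM, 9 of the 26348 genes in the deposited table. All 9 passed the filter on low values, which asked for 3 or more libraries at an FPKM (fragments counted per length of the gene and per total of the library) of 0.5 or more. Another 36 keratin genes are in the table, and 4 of them passed. The lines were A549, from a human non-small cell lung cancer, and 293T, from human embryonic kidney cells. A549 cells exposed to the field for 2 h and A549 cells that received no field (control) gave 3 libraries each, and so did exposed and control 293T cells. The labels name no other agent or allele for any of the groups, and the sources used here do not give the strength or origin of the field. Whether libraries of the same group are separate cultures is not stated, and if they are not, the p-values describe technical spread alone.

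Keratin filaments are built from pairs of a type I and a type II keratin, while vimentin, a type III protein, assembles with itself. KRT8 (type II) and KRT18 (type I) form the filament pair of simple epithelia such as those of the lung airway and the kidney tubule, where KRT7 (type II) and KRT19 (type I) often accompany them. Vimentin is the filament protein of mesenchymal cells and is also made by many epithelial cells in culture. KRT10 is a type I keratin of the upper epidermis, KRT80 a type II keratin of many epithelia, and KRT81 and KRT86 are type II keratins of the hair shaft.

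The recovered depth was 37173018 to 38884608 counts per library. On the first principal component of each line, exposed replicate 3 lay nearer to the controls (9.91 in A549 and 6.51 in 293T) than the other exposed libraries (15.7 and 18.2 in A549, 16.1 and 14.7 in 293T). The labelled tissues were checked against marker genes. Of 9 lung alveolar markers 3 were tested. SFTPA2 was listed at 0 in both A549 groups, and the lung factor NKX2-1 averaged 0.00735 FPKM in exposed and 0.0108 FPKM in control A549. NKX2-1 was higher in 293T, at 0.8329 FPKM in exposed and 0.9468 FPKM in control cells. ABCA3, also tested, averaged 9.737 FPKM in exposed and 12.4 FPKM in control A549. The lung markers summed to 10.52 to 11.18 FPKM in exposed and 12.56 to 13.58 FPKM in control A549. In 293T they summed to 4.315 to 4.844 FPKM in exposed and 5.061 to 5.346 FPKM in control cells. Of 9 kidney tubule markers 4 were tested, and their summed level was 1.77 to 1.99 FPKM in exposed and 2.02 to 2.28 FPKM in control 293T. The epithelial adhesion gene CDH1 was at 16.8 FPKM in exposed and 16.3 FPKM in control A549. In 293T it was at 0.741 FPKM in exposed and 0.904 FPKM in control cells. Another epithelial marker, ELF3, was at 53.2 FPKM in control A549 and 0.0629 FPKM in control 293T. EPCAM, CLDN4, CLDN3, CLDN7, ESRP1 and GRHL2 were at 2.11, 1.18, 0.71, 0.0914, 0.0479 and 0.00105 FPKM in control A549. In control 293T they were at 0.719, 0.0614, 0.0341, 0.353, 0.00882 and 0.00318 FPKM. Some mesenchymal markers (COL1A1, COL1A2, COL3A1, LUM, DCN, PDGFRB) averaged at most 1.69 FPKM in control A549 and 2.29 FPKM in control 293T. They are part of a list of 24 mesenchymal genes, which was not low as a whole. The list summed to 1745 to 1881 FPKM in control A549 and 133.5 to 134.3 FPKM in control 293T. Of its genes, 15 averaged 1 FPKM or more in control A549 and 17 in control 293T. The labels call 293T epithelial. Markers of squamous, blood and endothelial cells summed to 3.11 to 3.62 FPKM in exposed and 2.55 to 3.14 FPKM in control A549, and to at most 0.0429 FPKM in exposed and 0.0464 FPKM in control 293T. Most of the A549 sum was KRT6A, a keratin of squamous epithelia. The part of these markers in the results below was not tested. In RNA from whole cultures, fewer cells of a type and less RNA per cell cannot be told apart.

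The level of each gene in the unexposed lines was compared first. A549 was the keratin-rich line. KRT18 was at 1626, 1699 and 1668 FPKM and KRT8 at 1565, 1564 and 1577 FPKM in the A549 controls, which put them at ranks 24 and 25 of 21811 genes above 0. In the 293T controls KRT18 was at 52.1, 52.4 and 53.5 FPKM and KRT8 at 29.9, 30.1 and 26.6 FPKM, ranks 1123 and 2159 of 23082. KRT18 was thus 31.6-fold and KRT8 54.4-fold higher in A549.

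The contrast was wider for KRT7 and KRT81 and narrower for VIM and KRT10. KRT7 averaged 604.5 ± 10.7 FPKM in control A549 and 0.642 ± 0.0663 FPKM in control 293T, and KRT81 averaged 738 ± 9.26 FPKM and 1.05 ± 0.161 FPKM in the same groups (SD, n = 3 each). KRT81 was the higher of the pair in both lines. VIM averaged 616 ± 3.35 FPKM in control A549 and 329 ± 1.49 FPKM in control 293T, a 1.87-fold difference. In 293T it was the highest of the 9 genes, at rank 131.

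KRT19, KRT80 and KRT86 were close to absent from 293T. KRT80 was at 40.3 ± 1.21 FPKM, KRT19 at 17.4 ± 1.21 FPKM and KRT86 at 4.63 ± 0.323 FPKM in control A549. The recovered counts behind these levels in A549 controls were 6709 to 7106 for KRT80, 869 to 1000 for KRT19 and 1103 to 1266 for KRT86 per library. In the 293T controls the counts were 6, 4 and 4 for KRT80, 1, 3 and 0 for KRT19, and 1 in each library for KRT86. KRT10 was 1.88-fold higher in A549, at 16.8 ± 1.56 FPKM against 8.93 ± 0.325 FPKM in 293T.

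All 9 genes were called higher in A549 controls than in 293T controls (limma with Benjamini-Hochberg adjustment, largest adjusted p = 1.33e-08, for KRT10). KRT19, KRT80 and KRT86 passed the filter on low values only through A549, so their calls were fixed by the filter, and the test bears on the other 6. Of all genes tested 32.4% were higher and 88.3% differed in either direction, and the median over all genes was -0.25 on the log2 scale (-0.41 after rescaling to TPM and -0.15 after quantile normalization). FPKM is per length, so levels can be ordered within a line. In A549 controls the order was KRT18, KRT8, KRT81, VIM, KRT7, KRT80, KRT19, KRT10 and KRT86, with overlapping libraries for VIM and KRT7 and for KRT19 and KRT10. In 293T controls it was VIM, KRT18, KRT8, KRT10, KRT81, KRT7, KRT80, KRT19 and KRT86, with overlapping libraries for KRT80 and KRT19, and KRT19 at 0 in 1 library.

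**Figure D1:**
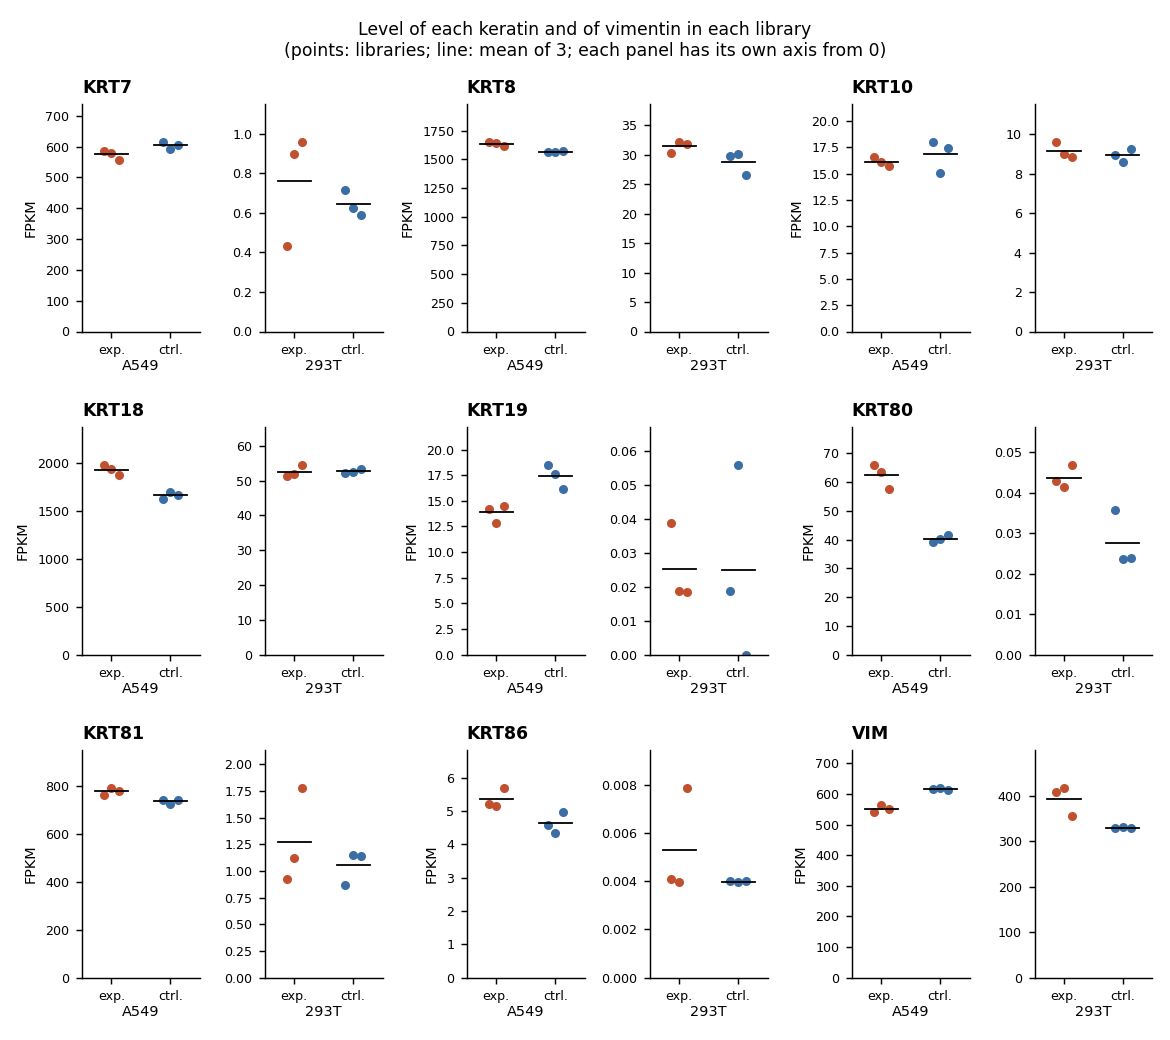
FPKM of each of the 9 genes in each of the 12 libraries, with exposed (exp.) left of control (ctrl.) and a panel for each line, since the lines differ too much to share an axis. Points are libraries and lines are means of 3; KRT18 and KRT80 lie above their controls and KRT19 and VIM below them in A549, while VIM lies above its controls in 293T.

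KRT81 and KRT86 need care, because their coding sequences are 94.2% identical, with a longest identical run of 605 bases. KRT81 occupies bases 52285913 to 52291534 of chromosome 12 (GRCh38.p14), inside the annotated span of KRT86 (52274645 to 52309163), on the opposite strand. Of the 125-base windows of its coding sequence, 35.1% occur unchanged in a KRT86 transcript, and 36.7% of the windows of KRT86 occur in KRT81 or KRT87P. The 90 coding bases in which the pair differ most, bases 1237 to 1326 of each coding sequence (GENCODE release 29, GRCh38), are shown to let the copies be told apart. Capitals mark the 19 bases that differ.
KRT81: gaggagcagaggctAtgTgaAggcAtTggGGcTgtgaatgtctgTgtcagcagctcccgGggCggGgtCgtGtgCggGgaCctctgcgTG
KRT86: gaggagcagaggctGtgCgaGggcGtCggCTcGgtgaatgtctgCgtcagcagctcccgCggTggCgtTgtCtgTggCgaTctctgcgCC
The sources used here do not say how reads that match both were counted, and the split between these genes is uncertain, most of all for KRT86, the lower of the pair. VIM shared 34.5% of its windows with the antisense gene VIM-AS1, close to the share of KRT81. The other members shared less. KRT18 shared 16.6% of its windows with KRT8 transcripts, whose annotated span on chromosome 12 (52897191 to 52949860) runs into that of KRT18 (52948855 to 52952906). KRT8 shared 1.1% with pseudogene copies, KRT7 shared 8.0% with the antisense gene KRT7-AS, and KRT10, KRT19 and KRT80 shared 0.

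In A549, the field comparison found the simple-epithelial type I keratin KRT18 and the type II keratin KRT80 higher in exposed cells, and the type I keratin KRT19 and vimentin lower. KRT86 was also called higher. KRT8, the partner of KRT18, and the abundant KRT7 and KRT81 had log2 fold changes of -0.07 to 0.08 and were not past the threshold, and neither was KRT10. Of the 9 genes 5 were called, against 40.2% of all genes tested. Of these 3 were higher, against 13.3% of all genes, and 2 were lower, against 26.9%. The balance of directions over all genes depends on the scaling, with 33.1% of called genes higher as reported, 46.3% after quantile normalization and 51.6% after centring each library on its median.

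KRT80 had the largest change of the 9. It was at 65.9, 63.3 and 57.7 FPKM in exposed A549 and at 39.2, 40.1 and 41.6 FPKM in control A549. The lowest exposed library, replicate 3, was well above the highest control. The means, 62.3 ± 4.22 FPKM and 40.3 ± 1.21 FPKM, differed 1.55-fold (log2 fold change 0.61, SE 0.05, limma adjusted p = 3.38e-06). KRT80, at bases 52168996 to 52192014 of chromosome 12, overlaps no annotated gene. Under the other settings its change was 0.58 to 0.67, past the threshold in each.

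KRT18 was at 1984, 1943 and 1881 FPKM in exposed A549 and at 1626, 1699 and 1668 FPKM in control A549. Each exposed library lay above each control, with replicate 3 again the lowest of the exposed. The difference was 1.16-fold (log2 fold change 0.22, SE 0.03, limma adjusted p = 1.55e-04), and it placed KRT18 at rank 20 of 21642 genes above 0 in exposed A549. It was past the threshold under every other setting, at 0.15 to 0.27.

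KRT8 was at 1653, 1640 and 1615 FPKM in exposed A549 and at 1565, 1564 and 1577 FPKM in control A549. The groups did not overlap, but the difference was 1.04-fold, and in the fit over both lines it was not past the threshold (log2 fold change 0.06, SE 0.04, 95% interval -0.03 to 0.15, limma adjusted p = 0.270). On recovered counts it was past it (limma-voom, log2 fold change 0.06, adjusted p = 0.0227), and after quantile normalization its sign turned (-0.005, adjusted p = 0.953). Its direction in A549 thus depends on that scaling.

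KRT19 was at 14.3, 12.8 and 14.5 FPKM in exposed A549 and at 18.5, 17.6 and 16.1 FPKM in control A549. The highest exposed library was below the lowest control. Exposed cells had 0.797 times the control level (log2 fold change -0.31, SE 0.06, limma adjusted p = 0.00119). A pseudocount of 0.1 ended the call (-0.33, adjusted p = 0.0874). That scale spreads the 293T values, which rest on 0 to 3 counts a library, and the fit pools that spread. KRT19 is on chromosome 17 from 41523617 to 41528308, away from the chromosome 12 keratins, and overlaps no annotated gene.

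VIM was at 540, 562 and 552 FPKM in exposed A549 and at 617, 619 and 613 FPKM in control A549. The groups did not overlap, at 552 ± 11 FPKM in exposed and 616 ± 3.35 FPKM in control libraries. Exposed cells had 0.895 times the control level (log2 fold change -0.16, SE 0.05, limma adjusted p = 0.0156). The call was lost after median centring (-0.11, adjusted p = 0.135) and without exposed replicate 1 (-0.15, adjusted p = 0.0576).

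Among the remaining type II keratins, KRT7 was at 587, 580 and 556 FPKM in exposed A549 and at 615, 594 and 604 FPKM in control A549. KRT81 was at 764, 793 and 782 FPKM in exposed A549 and at 742, 728 and 745 FPKM in control A549. Neither pair of groups overlapped, with KRT7 lower and KRT81 higher in every exposed library. The share of all genes without such overlap was not computed, so for each gene in this report a lack of overlap is a description alone. The fit over both lines gave them the 2 widest errors of the 9 genes, and neither passed (KRT7 log2 fold change -0.07, SE 0.09, adjusted p = 0.566; KRT81 0.08, SE 0.10, adjusted p = 0.599). In 293T, where both are near or under 1 FPKM, their libraries scatter the most, and the fit pools that spread. For KRT19, KRT80 and KRT86, close to absent from 293T, the same pooling takes in almost no spread from 293T. It thereby narrows their errors in A549. With the A549 groups alone the adjusted p was 0.1001 for KRT7 and 0.0535 for KRT81, and limma-voom on recovered counts gave 0.0520 and 0.0246.

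KRT86 was at 5.21, 5.16 and 5.69 FPKM in exposed A549 and at 4.57, 4.34 and 4.98 FPKM in control A549. The exposed libraries were all higher, by 1.16-fold on average (log2 fold change 0.17, SE 0.05, limma adjusted p = 0.0151). The call was lost in the A549 groups alone (adjusted p = 0.0702), with a pseudocount of 0.1 (0.0813), and without exposed replicate 3 (0.0583) or control replicate 2 (0.0643). KRT10 overlapped between the groups, at 16.1 ± 0.430 FPKM in exposed and 16.8 ± 1.56 FPKM in control A549 (log2 fold change -0.05, 95% interval -0.18 to 0.07, adjusted p = 0.513). Its antisense neighbour KRT10-AS1 was at 9.11 ± 0.590 FPKM and 6.77 ± 0.254 FPKM in the same groups. Without known strand in the counting, reads from the stretch where these genes overlap cannot be told apart.

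**Figure D2:**
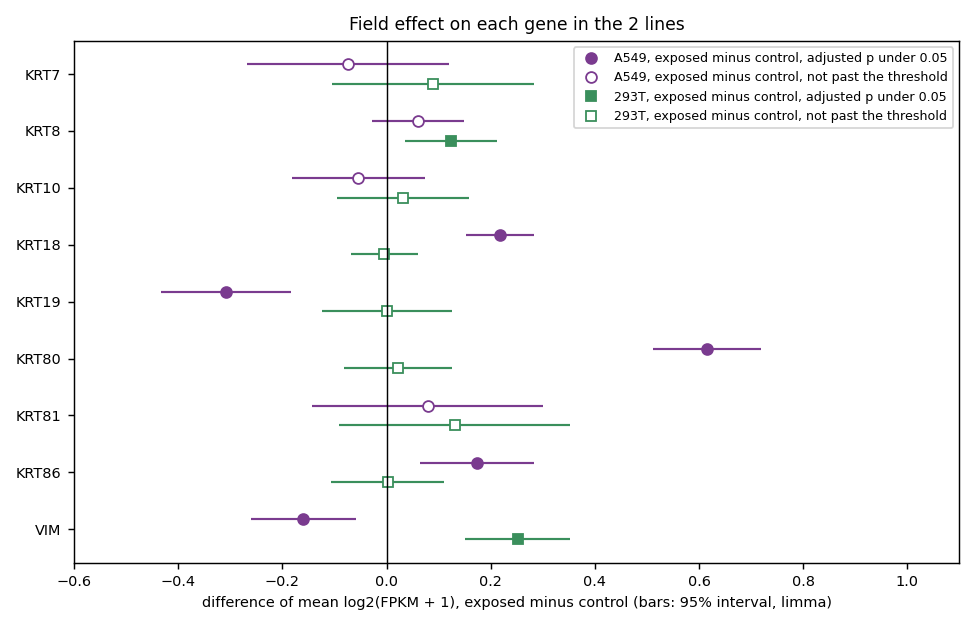
Difference of mean log2(FPKM + 1), exposed minus control, for each gene, with A549 (circles) above 293T (squares) and bars for the limma 95% interval. Filled symbols have an adjusted p under 0.05; KRT80 in A549 lies at 0.61, and VIM lies at -0.16 in A549 and 0.25 in 293T.

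In 293T the field comparison found VIM and KRT8 higher in exposed cells. Of the 9 genes 2 were called, against 38.0% of all genes tested. Both were higher, against 13.7% of all genes, and 0 were lower, against 24.2%. The share of called genes that were higher was 36.2% as reported and 47.8% after quantile normalization. VIM was at 407, 416.5 and 355 FPKM in exposed 293T and at 328, 331 and 328 FPKM in control 293T. Exposed replicate 3 was the lowest of its group and still above each control, and the exposed libraries were spread far wider (SD 33.4) than the controls (SD 1.49). The difference was 1.19-fold (log2 fold change 0.25, SE 0.05, limma adjusted p = 0.00138) and was past the threshold under every other setting, at 0.16 to 0.28.

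VIM was the only gene of the 9 called in both lines, with opposite signs, so the sequence before its start is shown. The table of RefSeq promoters used here (GRCh38.p14) matched VIM, KRT8 and KRT10 of the 9 genes. Promoters of KRT7, KRT18, KRT19, KRT80, KRT81 and KRT86 were not analysed here. The 250 bases before the annotated start of VIM, chr10:17227991-17228240 on the plus strand, read 5′ to 3′, with motif matches in capitals:
VIM: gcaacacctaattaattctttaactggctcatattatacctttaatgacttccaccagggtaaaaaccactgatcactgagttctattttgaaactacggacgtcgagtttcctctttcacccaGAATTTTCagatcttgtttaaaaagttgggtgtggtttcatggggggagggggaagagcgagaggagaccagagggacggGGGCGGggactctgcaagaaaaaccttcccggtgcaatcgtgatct
The letters searched on both strands were GAANNTTC (the heat shock element), TGANTCA (the AP-1 site), GGGCGG (the GC box) and TATAAA (the TATA box). The VIM window holds GAANNTTC at -126 and GGGCGG at -46 from the start, and the other letters are not in it. The KRT10 window holds TATAAA at -29 and none of the other letters. The KRT8 window (52926470 to 52926719) holds none of them. It lies inside the annotated span of KRT8 and not before it. Of all promoters in the table, 5.8% hold GAANNTTC, 6.6% TGANTCA, 42.6% GGGCGG and 10.7% TATAAA in such a window. VIM runs from 17228241 to 17237593 on chromosome 10 and is overlapped by the antisense gene VIM-AS1, which shares 34.5% of the 125-base windows of the VIM coding sequence. VIM-AS1 was at 1.94 ± 0.115 FPKM in exposed and 1.76 ± 0.301 FPKM in control 293T, and at 1.28 ± 0.145 FPKM in exposed and 1.16 ± 0.114 FPKM in control A549.

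KRT8 was at 30.4, 32.2 and 31.9 FPKM in exposed 293T and at 29.9, 30.1 and 26.6 FPKM in control 293T. The groups did not overlap, but the lowest exposed library lay just above the highest control. The difference was 1.09-fold (log2 fold change 0.12, SE 0.04, limma adjusted p = 0.0313). The call was lost without control replicate 3 (0.07, adjusted p = 0.102), without exposed replicate 2 (0.11, adjusted p = 0.106), without exposed replicate 3 (0.11, adjusted p = 0.0738) and in 6 of 11 other settings. KRT18, its partner, was at 51.2, 51.9 and 54.5 FPKM in exposed 293T and at 52.1, 52.4 and 53.5 FPKM in control 293T. These groups overlapped, with a log2 fold change of -0.004 (95% interval -0.07 to 0.06, limma adjusted p = 0.950).

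The other keratins of 293T were not past the threshold. KRT10 averaged 9.16 ± 0.402 FPKM in exposed and 8.93 ± 0.325 FPKM in control cells. KRT7 was at 0.434, 0.896 and 0.958 FPKM in exposed and at 0.717, 0.621 and 0.589 FPKM in control cells, so that exposed replicate 1 lay below all controls and the other exposed libraries above them. Without exposed replicate 1 its log2 fold change was 0.23 (limma adjusted p = 0.00213), against 0.09 (adjusted p = 0.470) with it. KRT81 was at 0.920, 1.12 and 1.78 FPKM in exposed and at 0.868, 1.15 and 1.14 FPKM in control cells (log2 fold change 0.13, adjusted p = 0.346), and without exposed replicate 3 its log2 fold change was -0.02. KRT80 had 7, 7 and 8 counts in exposed and 6, 4 and 4 counts in control libraries, KRT19 had 2, 1 and 1 against 1, 3 and 0, and KRT86 had 1, 1 and 2 against 1, 1 and 1. Changes of these 3 genes were not detectable at this depth.

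The difference of the field effects, A549 minus 293T, was tested in the same fit. It was past the threshold for 4 of the 9 genes, against 12.5% of all genes tested, but KRT19 and KRT80 passed the filter only through A549. For KRT18 and KRT80 the difference was positive, as for 5.51% of all genes, and for KRT19 and VIM negative, as for 7.03%. For VIM it was -0.41 on the log2 scale (SE 0.06, limma adjusted p = 0.00226) and for KRT18 0.22 (SE 0.04, adjusted p = 0.00626). Both were past the threshold under every setting tried and without any 1 library, at -0.48 to -0.37 for VIM and 0.20 to 0.25 for KRT18 when a library was left out.

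The differences of KRT80 and KRT19 are tied to the scale. They were 0.59 (SE 0.07, adjusted p = 4.70e-04) and -0.31 (SE 0.08, adjusted p = 0.0286) on the log2(FPKM + 1) scale, on which a gene near 0 FPKM in 293T cannot move. As ratios of mean FPKM, KRT80 was 1.55-fold higher in exposed A549 and 1.58-fold higher in exposed 293T, the 293T ratio resting on 22 counts in exposed and 14 in control libraries. On recovered counts the KRT80 difference was -0.002 (limma-voom, adjusted p = 0.999) and that of KRT19 was -0.70 (adjusted p = 0.689). The KRT19 call was also lost in 7 of 12 fits that left out 1 library. The remaining 5 genes were not past the threshold, with 95% intervals of -0.19 to 0.06 for KRT8, -0.27 to 0.09 for KRT10 and 0.02 to 0.33 for KRT86 (adjusted p = 0.136).

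Ratios within a library do not depend on its scaling and are given as a description. The ratio of KRT8 to KRT18, the partners of the simple-epithelial filament, was 0.845 ± 0.0127 in exposed and 0.943 ± 0.0210 in control A549 (SD, n = 3 each). In 293T it was 0.599 ± 0.0188 in exposed and 0.548 ± 0.0445 in control cells. The groups did not overlap in either line, and exposed cells had the lower ratio in A549 and the higher ratio in 293T. The sum of the 5 type II genes over the sum of the 3 type I genes was 1.56 ± 0.0268 in exposed and 1.74 ± 0.0462 in control A549, and 0.544 ± 0.0207 in exposed and 0.497 ± 0.0392 in control 293T. In A549 the 2 sums were therefore unequal, with type II in excess by FPKM, and in 293T type I was in excess.

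The 8 keratins together were at 5023 ± 85.5 FPKM in exposed and 4655 ± 23.2 FPKM in control A549, or 1.24% and 1.14% of all FPKM. In 293T they were at 95.3 ± 2.73 FPKM in exposed and 92.2 ± 1.01 FPKM in control cells. KRT8 and KRT18 made up 71.1% of that sum in exposed and 69.5% in control A549, and 88.2% in exposed and 88.4% in control 293T. The keratin sum over VIM was 9.11 ± 0.271 in exposed and 7.55 ± 0.0666 in control A549, and 0.244 ± 0.0280 in exposed and 0.280 ± 0.00231 in control 293T. By this ratio exposed A549 was shifted toward keratin and exposed 293T toward vimentin, without overlap between the groups of a line. In 293T exposed replicate 3 (0.2765) lay only just under the lowest control (0.2777), while exposed replicates 1 and 2 were at 0.2274 and 0.2285.

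**Figure D3:**
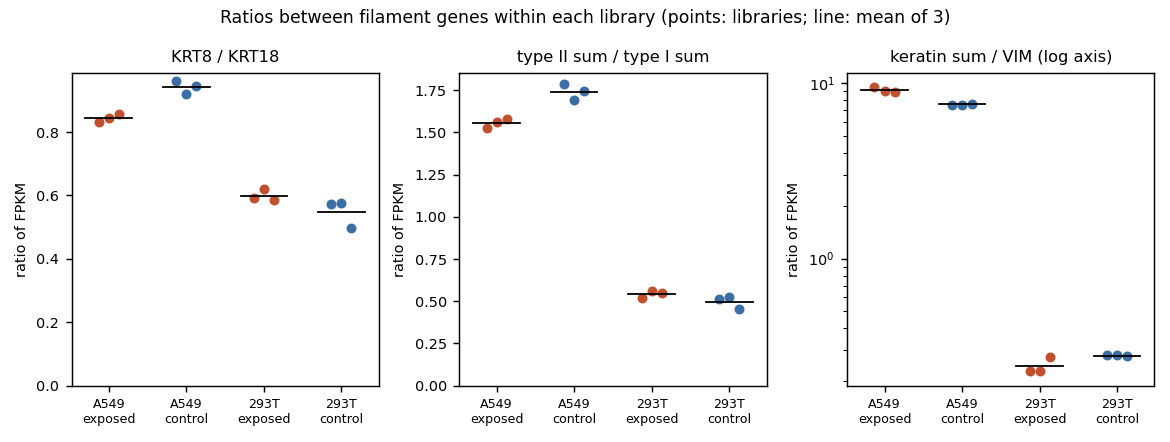
Ratio of KRT8 to KRT18, of the type II to the type I keratin sum, and of the keratin sum to VIM (log axis) in each library, with exposed left of control for A549 and then 293T; points are libraries and lines are means of 3. KRT8 over KRT18 was 0.845 in exposed against 0.943 in control A549, and the keratin sum over VIM was 9.11 against 7.55.

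Other genes of the filament system were read from lists. Of 49 further intermediate filament genes in the table, 13 were tested. In A549 4 were higher (13.3% of all genes tested) and 4 lower (26.9%) in exposed cells, with a median log2 fold change of 0.005 (all genes tested, -0.04). The nuclear lamin gene LMNA, at 110.9 ± 1.03 FPKM in exposed and 145.5 ± 2.81 FPKM in control A549, fell (log2 fold change -0.39, SE 0.04, limma adjusted p = 1.22e-05), and so did LMNB1 (-0.20) and the neurofilament gene NEFL (-0.23). LMNB2, the other B-type lamin, rose (0.16). Among the keratins, KRT6A rose to 2.90 ± 0.224 FPKM in exposed A549, against 2.21 ± 0.275 FPKM in control A549 (log2 fold change 0.28, SE 0.06, adjusted p = 0.00288), and KRT15, a type I keratin, fell (-0.20, adjusted p = 0.0179). KRT4 (0.12, adjusted p = 0.107) and KRT222 (-0.05, adjusted p = 0.669) did not pass. In 293T 1 of the 13 was higher (13.7% of all genes tested) and 2 were lower (24.2%), namely the neuronal filament gene INA (0.30), KRT222 (-0.28) and LMNB1 (-0.10, adjusted p = 0.0482).

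Desmosome and linker genes, which anchor keratin filaments at cell contacts and bind them to other structures, included PLEC, EVPL, PPL and ITGB4 among those lower in exposed A549. Of 20 tested, 10 fell (26.9% of all genes tested did), 5 rose (13.3%) and 5 did not pass, with a median of -0.15 (all genes tested, -0.04). The cross-linker plectin (PLEC) was at 51.0 ± 2.21 FPKM in exposed and 73.0 ± 2.34 FPKM in control A549 (log2 fold change -0.51, SE 0.04, limma adjusted p = 2.91e-06). The desmosomal linkers envoplakin (EVPL) and periplakin (PPL) fell by 0.58 and 0.43 on the log2 scale, and the hemidesmosome integrin gene ITGB4 fell by 0.41. In 293T 5 of the 20 fell (24.2% of all genes), 1 rose (13.7%) and 14 did not pass, with a median of -0.06 (all genes tested, -0.03). FBF1, a keratin-binding protein, was at 2.99 ± 0.217 FPKM in exposed and 4.41 ± 0.0832 FPKM in control 293T (log2 fold change -0.44, adjusted p = 5.36e-05), and FAM83H, which organises keratin filaments, fell by 0.34.

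Lists of epithelial and mesenchymal genes were read in the same way, against 40.2% of all genes called in A549 and 38.0% in 293T. Of 12 epithelial genes tested in A549, 1 rose, 2 fell and 9 did not pass. The tight junction gene CLDN1 rose to 53.1 ± 4.30 FPKM in exposed A549, against 33.8 ± 0.801 FPKM in control A549 (log2 fold change 0.63, limma adjusted p = 6.14e-06). The epithelial factor ELF3 fell by 0.66 and the mucin gene MUC1 by 0.27, while the junction gene TJP1 was at -0.12 (adjusted p = 0.0553). In 293T 2 rose and 1 fell: the factor GRHL1 (0.37), the tight junction gene OCLN (0.20) and CDH1 (-0.13). Of 18 mesenchymal genes tested in A549, the list that takes in vimentin-associated transcription factors but not VIM, 2 rose, 3 fell and 13 did not pass, among them TWIST2 (-0.75), TWIST1 (-0.48), SNAI2 (0.55) and the fibronectin receptor gene ITGA5 (-0.37). In 293T 4 rose and 3 fell, among them the smooth muscle actin gene ACTA2 (0.32), ZEB1 (0.23) and ITGA5 (-0.46). The cadherin of mesenchymal and neural cells, CDH2, was at 22.1 ± 0.642 FPKM in exposed and 21.7 ± 0.703 FPKM in control A549.

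**Figure D4:**
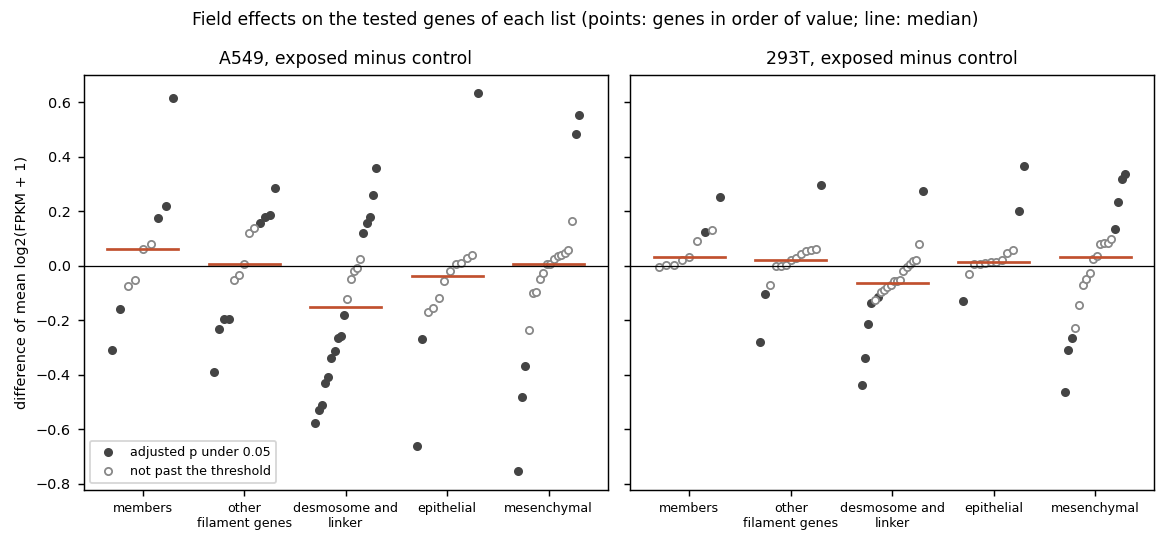
Field effect (difference of mean log2(FPKM + 1), exposed minus control) of every tested gene in the 9 members and in the lists of other filament, desmosome and linker, epithelial and mesenchymal genes, for A549 and 293T. Filled points have an adjusted p under 0.05 and lines are list medians, which is -0.15 for desmosome and linker genes in A549.

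Genes with a like pattern were named by their correlation over the 12 libraries after the mean of each line was subtracted, among 11639 genes with a mean of at least 1 FPKM. The values describe these libraries, which share the same field contrast. For KRT18 the closest were the Mediator subunit gene MED20 (r = 0.98), the phosphatase gene DUSP6 (0.97) and the co-chaperone gene DNAJC7 (0.97), with log2 fold changes of 0.40, 0.51 and 0.31 in A549 and 0.03, 0.02 and -0.001 in 293T. For VIM they were the glycine transporter gene SLC6A9 (0.98), the extracellular matrix gene EMILIN2 (0.97) and the GTPase regulator gene ARHGAP21 (0.95). These were chosen for a pattern like that of VIM, so their changes are a description: SLC6A9 was at -0.41, EMILIN2 at -0.15 and ARHGAP21 at -0.07 in A549 and at 0.61, 0.27 and 0.15 in 293T (log2, exposed minus control). For KRT8 they were TRMO (0.94), MGST3 (0.90) and TAF1 (0.89). Among the 9 genes themselves, KRT18 and KRT80 had r = 0.96, KRT18 and KRT19 r = -0.88, and KRT8 and KRT18 r = 0.29.

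**Figure D5:**
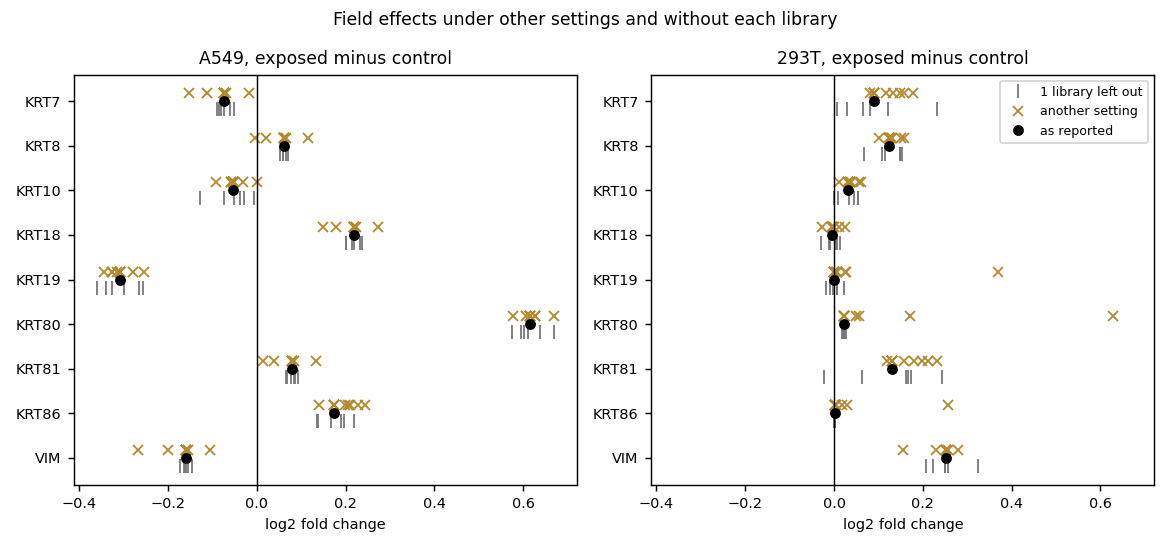
Log2 fold change, exposed minus control, of each gene in A549 and 293T as reported (black), under other settings (crosses) and with 1 library left out (ticks). KRT18 and KRT80 in A549 and VIM in 293T keep their sign and call throughout, while KRT8 in A549 reaches -0.005 and KRT18 in 293T lies on both sides of 0.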

How the data were processed

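The deposited table holds FPKM values made by the authors for 26348 genes in 12 libraries. The submitters' processing notes name fastp, HISAT2, HTSeq and GRCh38. Their versions and settings, and whether counting used strand, are not stated there. Per the labels' protocols, mRNA was selected with oligo(dT) beads. Since FPKM shares a fixed scale, a rise of abundant transcripts lowers all others.

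A gene needed 0.5 FPKM in 3 or more libraries, which kept 13811 genes and removed 12537. Group means of log2(FPKM + 1) were fitted over the 12 libraries (limma 3.58.1 under R 4.3.3, variance trend on, 8 residual degrees of freedom). Two-sided p-values were adjusted over the whole set of tested genes (Benjamini-Hochberg) and called under 0.05. On this scale the change of low genes is understated. Whole counts were recovered for 100% of genes within 0.01 counts, and served for depth and limma-voom. Ratios called fold are of mean FPKM.

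Alternatives were no filter, a filter at a mean of 1 FPKM, a pseudocount of 0.1, quantile normalization, TPM, median centring, a sum without mitochondrial genes, no trend, the replicate number as a block, limma-voom, only the 2 groups compared, and leaving out each library. The members and lists were chosen with earlier results of these data known. Genes named beside the 9 were those with the smallest adjusted p of each list, up to 4 in A549 and 3 in 293T, every other tested keratin, the 3 genes most like KRT8, KRT18 and VIM, overlapping genes, and markers. Of the genes that rule picks, 1 is not reported here. CDH2 was chosen after its values were seen. Coding sequences came from GENCODE 29, and positions and promoters from RefSeq, read in Python 3.11.15 (Biopython 1.88, numpy 2.4.6, pandas 2.3.3). The fit was tested on simulated data.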

Additional observations from a re-analysis of the deposited data

Results flagged for a closer look

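The difference of the field effects between A549 and 293T was past the threshold for 4 of the 9 genes (limma with Benjamini-Hochberg adjustment, A549 minus 293T on the log2(FPKM + 1) scale). VIM, lower in exposed A549 and higher in exposed 293T, differed by -0.412 (adjusted p = 0.00226). KRT18, higher in exposed A549 and at -0.004 in 293T, differed by 0.221 (adjusted p = 0.00626). The other two passed the filter on low values only through A549, and on this scale their 293T change is held near 0. KRT80 was at 0.593 (adjusted p = 4.70e-04) with at most 8 counts in any 293T library, and limma-voom gave -0.002 (adjusted p = 0.999). KRT19 was at -0.309 (adjusted p = 0.0286) with at most 3 counts in any 293T library, and limma-voom gave -0.696 (adjusted p = 0.689). The KRT19 call was lost in 5 of 10 other settings and in 7 of 12 fits without 1 library.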

How the results depend on the processing

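KRT18 and KRT80 in A549, VIM in 293T, and the differences of VIM and KRT18 between the lines kept their sign and call under each alternative and without each library. Of the 9 genes, 5 were called in A549 as reported and 3 with a pseudocount of 0.1. By limma-voom those 5 stayed called, and KRT8 (adjusted p = 0.0227) and KRT81 (adjusted p = 0.0246) were called as well. In 293T 2 were called as reported and 1 without a filter, with the sum set without mitochondrial genes, without a trend, with the replicate number as a block, by limma-voom and with only the 2 groups compared, and 1 to 3 when a library was left out. For the difference between the lines 4 were called as reported and 2 by limma-voom. The block left 1047 genes with a called difference, against 1732 as reported. Deviations of same-numbered libraries had correlations of -0.14 to -0.04 in A549 and -0.10 to 0 in 293T. Across the lines they were -0.03, -0.01 and 0.22 for exposed replicates 1, 2 and 3, and -0.16, 0.03 and -0.14 for controls, so the numbers were not taken to pair the libraries.

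Signs turned for KRT8 in A549 after quantile normalization (-0.005), for KRT10 in A549 after median centring (0.001), for KRT18 in 293T after quantile normalization (0.012), TPM (3.0e-04) and median centring (0.024), and for the differences of KRT80 (-0.002) and KRT86 (-0.046) by limma-voom. None of these was past the threshold. With 1 library left out, the 293T change ran from -9.9e-05 to 0.055 for KRT10, -0.030 to 0.014 for KRT18, -0.017 to 0.023 for KRT19 and -0.023 to 0.243 for KRT81, and the KRT81 difference from -0.164 to 0.102. Where not said otherwise, the cause was not tested. Of all comparisons of single genes with an alternative, 607 kept their sign and side of the threshold, 28 lost a call, 5 gained one and 17 turned sign. Depth limits KRT19, KRT80 and KRT86 in 293T, with at most 8 counts a library.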
